A study of Danio rerio with 14 samples.

Results

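The genes described here are the Hox, T-box (Tbx), Dlx, Alx, Lhx, Meis, Pbx and Irx genes measured at the growing tip of the zebrafish fin. Members were chosen by gene symbol and by level: a symbol beginning with one of those family names and a number, and a deposited value of at least 1 in at least 2 of the 14 libraries. The table of 14836 genes held 103 such symbols, and 61 of them reached that level, among 11272 genes that did so in all. The 61 were 22 posterior Hox genes (groups 9 to 13), 8 anterior Hox genes (groups 1 to 8), 9 Tbx, 8 Dlx, 8 Meis and Pbx, 4 Irx and 2 Lhx genes. The single Alx symbol, alx4b, reached 0.81 at most. Just inside the threshold were hoxa1a, irx6a and tbx16, with exactly 2 libraries at 1 or more and a next highest value of 0.99, 0.70 and 0.95, and just outside were lhx8a and hoxa5a, with 1 such library each, at 1.14 and 1.13.

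Wild-type zebrafish (Danio rerio) fins were sampled on the day of amputation (0 days post amputation, dpa) and at 3, 7, 10 and 14 dpa. The design text places the first regrowth time at 3.5 days, where the labels say 3. RNA came from the last 250 µm or so of each ray, so every library mixes all cell types of the tip. Each library was a pool of 10 animals, and there were 3 libraries per time except at 14 dpa, where 2 were of sufficient quality. The sources used here name no treatment besides amputation and no age of the animals, and they do not say which fin was taken. Each p-value for a regrowth time against 0 dpa thus rests on how far pools of the same time differed. The p-value of a slope over the regrowth days also rests on how far the times departed from a straight line. The test of duplicate copies takes the libraries of all regrowth times as a single group, so its spread includes differences between those times. Every comparison with 0 dpa uses the same 3 libraries from that day.

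Hox genes encode homeodomain transcription factors that give cells an address along the body and along an appendage. The posterior groups act in the outer part of the limb, and the group 13 genes hoxa13a, hoxa13b and hoxd13a are needed for normal fin rays in zebrafish. Meis and Pbx proteins bind DNA together with Hox proteins, Dlx proteins act in the ectodermal rim of the limb bud and in bone-forming cells, Lhx2 and Lhx9 act in limb-bud mesenchyme in mouse and chick, and Tbx proteins contribute to limb identity and outgrowth. Many of these genes exist in zebrafish as duplicate copies, marked a and b, left by the genome duplication of the teleost fish.

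The deposited values are named TPM, but they moved in steps of the same size in every gene, 0.0624 to 0.0678 depending on the library, so that 1 read was worth about the same in a long and a short gene. On that step the libraries held 14800000 to 16000000 reads. The values were therefore read as reads scaled to the library total without a correction for gene length, and levels are compared between times but not between genes. Libraries of the same time correlated with each other at 0.953 to 0.991 across all genes. In 4 libraries (replicate 1 of 0 dpa, replicate 2 of 7 dpa, replicates 2 and 3 of 10 dpa) fosb, an immediate early gene, stood at 886 to 1702, against 23.1 to 144 in the other 10. The counts of calls are given with and without these libraries, as are the values or calls of some of the members whose calls turn on them. Where a member is described without this, its calls may still differ when they are left out.

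At 3 dpa 41 of the 61 members were higher than at 0 dpa and 2 were lower, by limma with Benjamini-Hochberg adjustment over all 11272 genes and a threshold of 0.05. Over all genes 54.6% were called at that time, 35% higher and 19.6% lower. The share called higher among the members was 67.2%. All 61 passed the level for membership, but 16 of them were under 1 in every 0 dpa library and so passed only through later times, and 13 of these were among the 41. Of the other 45 members 28 were higher and 2 lower. The median log2 change was 0.99 over the members and 0.24 over all genes. At 7 dpa 36 members were higher and 1 was lower (30.5% of all genes called, 21.5% higher and 9.07% lower), and at 10 dpa 28 were higher and 1 lower (16.7% called, 14% higher and 2.73% lower). At 14 dpa 9 were higher and 1 lower, 16.4% of the members, beside 11.2% of all genes (10.1% higher and 1.08% lower). The number of calls at 14 dpa depended on single libraries: it was 1 or 4 when replicate 1 or 2 of that time was left out, and 5 or 6 when replicate 2 or 3 of 0 dpa was. At 10 dpa it was 19 when replicate 3 of 0 dpa was left out. Without the 4 libraries high in fosb the counts at 3, 7, 10 and 14 dpa were 44, 37, 25 and 21, of which 43, 35, 23 and 10 were also called in all libraries. Over all genes the shares called were then 63.6%, 35.9%, 13.5% and 31.1%.

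**Figure D1:**
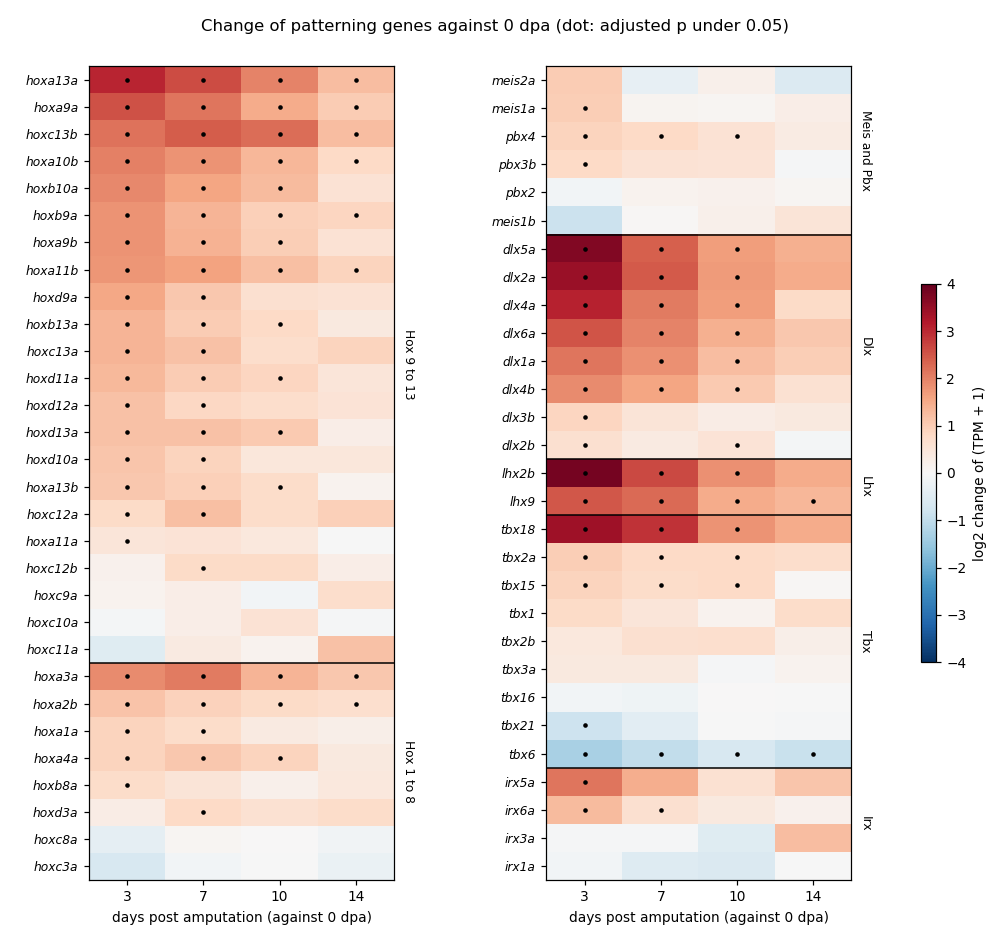
Log2 change against 0 dpa of the members named here (rows, grouped by family) at 3, 7, 10 and 14 dpa (columns), on the log2(value + 1) scale. Dots mark an adjusted p under 0.05. Most rows are highest in the first column, where 43 are marked, and 10 are marked in the last.

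For 39 of the 61 members the highest mean fell at 3 dpa, for 8 at 7 dpa, for 6 at 10 dpa, for 4 at 14 dpa and for 4 at 0 dpa. The time of the highest mean was not counted over all genes, so these counts show nothing particular to the members. Between 3 and 14 dpa the fitted linear slope of the log2 level was negative and past the test in 27 members and positive in 2, hoxc11a and tbx21 (30.8% of all genes called, 13.4% falling and 17.4% rising). hoxa1a and irx6a reached the level for membership only through 3 dpa libraries, where the slope starts. Both are among the 39 highest at 3 dpa and the 27 with a negative slope, and the choice of members favoured this. A called slope does not mean a fall at every step: the means of dlx2b were 44.7, 37.6, 42.2 and 27.2 at 3, 7, 10 and 14 dpa. Without the 4 libraries high in fosb 32 members had a negative slope and 3 a positive one. Of these 28 were also called in all libraries. Over all genes 36.6% were then called, with 20.9% of all genes rising and the rest of the calls falling. Because the tissue was sampled in bulk, fewer cells of a type and less RNA per cell cannot be told apart in any of these values. Scaling the libraries by the median of ratios in place of the deposited totals moved the median change of all genes at 3 dpa from 0.24 to 0.02. Of the calls among all genes 49.5% were then higher rather than 64.1%. Over all 11272 genes 2941 were higher and 2995 lower, and the members stood at 34 higher and 2 lower. At 7, 10 and 14 dpa the median change of all genes went from 0.19, 0.16 and 0.30 to -0.02, -0.04 and 0.04, and the share of calls that were higher from 70.3%, 83.7% and 90.4% to 48.9%, 58.5% and 51.9%. The members then stood at 35 higher and 2 lower, 23 and 2, and 3 and 1. Over all 11272 genes the counts were 1820 and 1904, 1213 and 861, and 272 and 252.

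**Figure D2:**
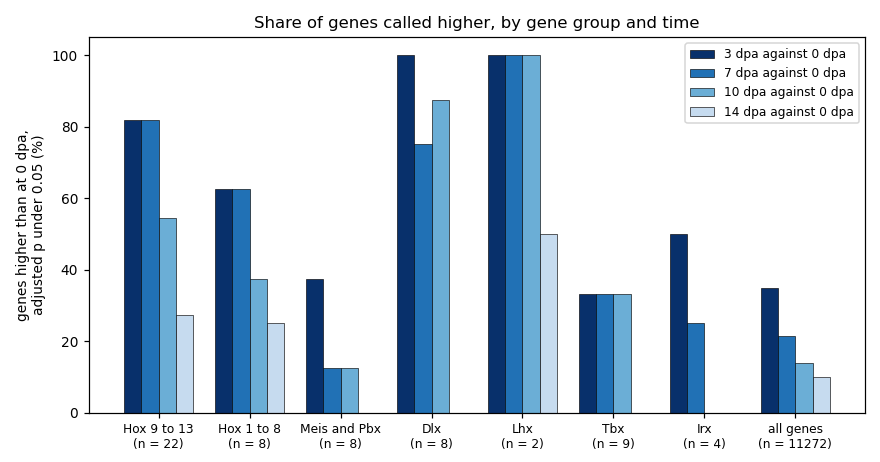
Percentage of genes called higher than 0 dpa (vertical axis) at each regrowth time, as bars for each family (number of members below it) and for all genes tested. At 3 dpa all 8 Dlx and both Lhx genes are called higher, against 35% of all genes, and at 14 dpa the bars of the Dlx, Meis and Pbx, Tbx and Irx genes are at 0.

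Among the posterior Hox genes 18 of 22 rose at 3 dpa and none fell, 18 rose at 7 dpa, 12 at 10 dpa and 6 at 14 dpa. Over all genes 35%, 21.5%, 14% and 10.1% were higher at these times. hoxa11a, hoxb13a, hoxc12b, hoxd9a, hoxd10a, hoxd11a and hoxd12a were under 1 in every 0 dpa library. They passed the level only through regrowth, and all of them except hoxc12b were among the 18 at 3 dpa. The 14 dpa calls of hoxa9a, hoxa10b and hoxb9a were lost under median-of-ratios scaling. hoxa13a, a fin ray gene of the last Hox group, was at 14.0, 11.4 and 12.4 at 0 dpa and at 102, 110 and 121 at 3 dpa. It was at 79.9, 81.7 and 81.0 at 7 dpa, at 55.4, 45.4 and 59.2 at 10 dpa, and at 34.1 and 28.4 at 14 dpa. Each time's libraries were thus separate from those of every other time, with the order descending from 3 dpa, and no library during regrowth returned to the 0 dpa range. The change at 3 dpa was 8.82-fold between means, and the gene remained higher at 14 dpa (log2 change 1.24, adjusted p = 0.000538 by limma). Its level fell by 0.17 ± 0.02 (SE) log2 units per day between 3 and 14 dpa. Its duplicate hoxa13b went from 71.1, 60.8 and 73.9 at 0 dpa to 151, 133 and 154 at 3 dpa. It was back at 75.3 and 76.9 at 14 dpa, just above the 0 dpa libraries (log2 change 0.15, adjusted p = 0.52).

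hoxa9a, another posterior gene of the same cluster, was at 2.30, 1.15 and 2.28 at 0 dpa and at 13.2, 13.8 and 21.0 at 3 dpa. The libraries of later times lay between these, at 10.7 to 12.6, 5.70 to 8.33 and 4.40 to 5.11 at 7, 10 and 14 dpa. The groups at 0 and 3 dpa did not overlap, and the log2 change was 2.54 ± 0.23 (SE, adjusted p = 1.62e-06). hoxa10b rose from 2.90, 3.65 and 3.42 to 14.9, 15.6 and 19.1 (log2 change 2.01 ± 0.17, adjusted p = 7.71e-07) and then descended through 13.9, 9.92 and 6.56 in the means at 7, 10 and 14 dpa. Over all 14 libraries hoxc13b followed another course. It stood at 13.2, 9.45 and 8.44 at 0 dpa, at 48.7, 44.2 and 55.3 at 3 dpa, and at 49.1, 77.0 and 54.7 at 7 dpa. Its mean at 10 dpa, 52.0 ± 9.21 (SD, n = 3), was still about that of 3 dpa, 49.4 ± 5.55. Only at 14 dpa, at 26.4 and 24.1, were its libraries below those of the earlier regrowth times. At 7 and 10 dpa the libraries high in fosb held 77.0, 50.1 and 62.0 of hoxc13b, and the others 49.1, 54.7 and 43.9. Its slope between 3 and 14 dpa, -0.08 log2 units per day, was not called in all libraries (adjusted p = 0.0611 by limma). Without the 4 libraries high in fosb its negative slope was called. In frogs, hoxc12 and hoxc13 genes promote regrowth of the limb.

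**Figure D3:**
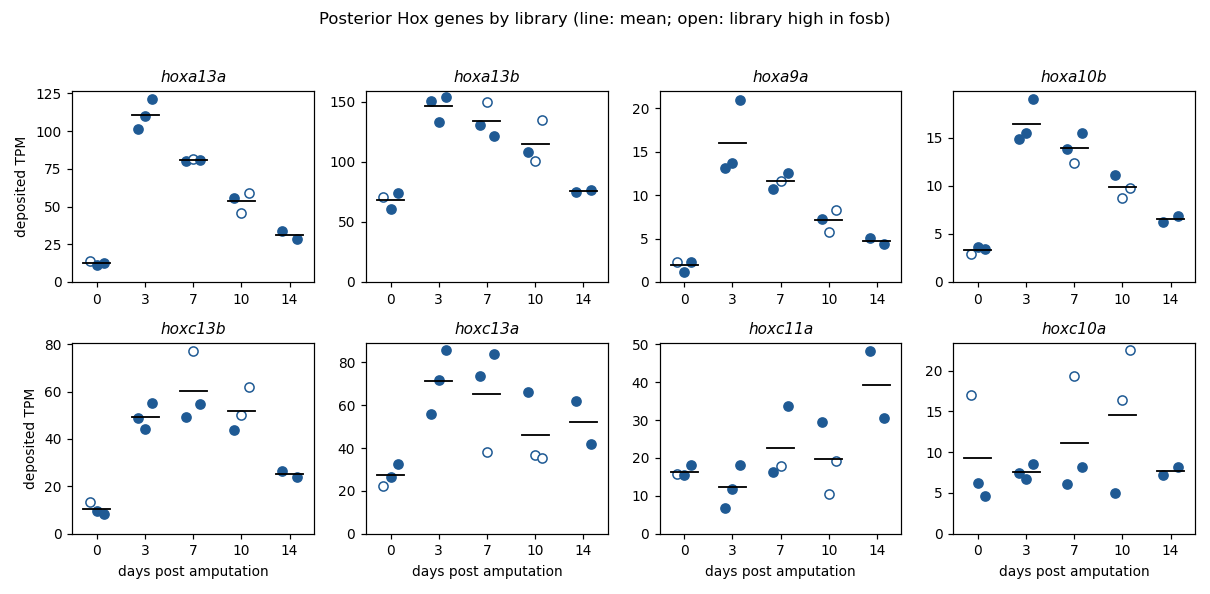
Deposited value (vertical axis, linear, from 0) of 8 posterior Hox genes in each of the 14 libraries, by days post amputation (horizontal axis), with a line at each mean. Open circles are the 4 libraries high in fosb. hoxa13a steps down from 102 to 121 at 3 dpa to 28.4 and 34.1 at 14 dpa, while hoxc13b stays near its 3 dpa level through 10 dpa. At 7 and 10 dpa the open circles of hoxc13b lie above the filled ones.

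Counts by Hox cluster follow, with no test of the difference between clusters. At 3 dpa all 6 members of the hoxaa cluster, all 5 of hoxab and all 4 of hoxba rose, with median log2 changes of 1.399, 1.78 and 1.59. In hoxda 5 of 6 rose, with a median of 1.18. All hoxda members except hoxd13a were under 1 in every 0 dpa library. They could only reach the level for membership through regrowth. The same held for hoxa1a, hoxa4a and hoxa11a of hoxaa, hoxa2b of hoxab, hoxb8a and hoxb13a of hoxba, and hoxc12b of hoxcb. Over all genes 35% were called higher at 3 dpa. In hoxcb hoxc13b rose and hoxc12b (0.18) did not pass. In hoxca 2 of 7 rose, hoxc13a and hoxc12a, and the median was -0.08. hoxca members hoxc11a, hoxc10a, hoxc9a, hoxc8a and hoxc3a had log2 changes of -0.49, -0.08, 0.14, -0.35 and -0.63, none past the test. hoxc11a was at 15.7, 15.5 and 18.0 at 0 dpa, at 6.80, 11.9 and 18.1 at 3 dpa, and at 48.3 and 30.5 at 14 dpa. It rose between 3 and 14 dpa (0.14 ± 0.04 log2 units per day, SE, adjusted p = 0.0312 by limma). Over 24 alternatives the adjusted p ranged from 0.00883 to 0.131, and 4 of them ended the call, each by leaving out 1 library (replicate 1 or 2 of 3 dpa or of 14 dpa). hoxc10a was at 16.4 to 22.5 in the 4 libraries high in fosb and at 4.62 to 8.49 in the other 10, and hoxc3a at 10.1 to 17.1 and 4.95 to 7.93. Without these 4 libraries the same hoxca genes were called at 3 dpa, and the changes of hoxc10a and hoxc3a were 0.43 and -0.22, neither past the test (adjusted p = 0.0873 and 0.342). The genes of a cluster are not independent.

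Most posterior hoxd and hoxb genes were scarce, and their values rest on few reads. hoxd13a, required with the hoxa13 genes for fin rays, had 16, 4 and 1 reads in the 0 dpa libraries and 25, 33 and 48 at 3 dpa. Its log2 change was 1.17 ± 0.25 (adjusted p = 0.00183), and it had 13 and 8 reads at 14 dpa. hoxd9a had 9, 9 and 12 reads at 0 dpa and 47, 54 and 88 at 3 dpa (log2 change 1.54 ± 0.22, adjusted p = 8.16e-05). hoxb13a had 12, 7 and 5 reads at 0 dpa and 62, 37 and 43 at 3 dpa (log2 change 1.37 ± 0.20, adjusted p = 0.000119). The log2 change is of value + 1, which understates the change of genes this low. The weakest posterior calls were hoxa11a and hoxc12a. The change of hoxa11a, 0.50, had an adjusted p of 0.05 after rounding (0.00862 to 0.172 over 22 alternatives, lost in 14). That of hoxc12a, 0.76, had an adjusted p of 0.047, lost in 11 of 23 alternatives, at most 0.197, when replicate 2 of 0 dpa was left out.

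Of the anterior Hox genes 5 of 8 rose at 3 dpa and none fell, beside 35% of all genes higher and 19.6% lower. hoxa1a, hoxa2b, hoxa4a, hoxb8a and hoxd3a were under 1 in every 0 dpa library. They reached the level for membership only through regrowth, and all of them except hoxd3a were called higher. Of the remaining anterior members hoxa3a rose, and hoxc3a and hoxc8a were not called. Of the 26 anterior Hox symbols listed, 18 did not reach the level for membership. hoxa3a, which works in the pharynx and hindbrain of vertebrate embryos, was at 5.87, 2.84 and 3.89 at 0 dpa. It was at 13.6, 17.5 and 24.1 at 3 dpa and 14.3, 26.2 and 21.8 at 7 dpa, all above the 0 dpa libraries (log2 change at 3 dpa 1.91 ± 0.28, adjusted p = 0.000116). It was at 10.5, 10.99 and 14.9 at 10 dpa and 11.04 and 8.47 at 14 dpa. The calls of hoxa4a and hoxb8a were less firm: that of hoxa4a ended when replicate 2 of 0 dpa was left out (adjusted p = 0.0804), and that of hoxb8a when any one of 5 libraries was.

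Among the Hox cofactors 3 of 8 Meis and Pbx genes rose at 3 dpa, or 37.5%, near the 35% of all genes. pbx4 was at 47.8, 41.1 and 38.6 at 0 dpa, at 86.5, 84.0 and 71.1 at 3 dpa, and at 57.0 and 50.2 at 14 dpa. The groups at 0 and 3 dpa did not overlap, and the log2 change was 0.91 ± 0.13 (adjusted p = 6.73e-05 by limma). pbx3b (0.78) and meis1a (0.99) were also called, with adjusted p of 0.0331 and 0.0444, but lost the call in 5 and 13 of 22 alternatives. pbx3b was at 0.47, 0.53 and 0.14 at 0 dpa, under 1 in every library. It reached the level for membership only through regrowth. meis1b, whose relatives mark the inner part of the limb in other vertebrates, spread widely within a time. It was at 75.1, 22.6 and 34.0 at 0 dpa and at 13.01, 19.7 and 35.7 at 3 dpa, groups that overlap (log2 change -0.85, adjusted p = 0.19).

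All 8 Dlx genes rose at 3 dpa, beside 35% of all genes. The calls of dlx2b and dlx3b were lost under median-of-ratios scaling. dlx5a, a homeobox gene of bone-forming cells and of the limb rim, was at 6.82, 10.2 and 11.9 at 0 dpa and at 82.5, 163 and 184 at 3 dpa. It was at 61.9, 33.7 and 71.7 at 7 dpa, 51.5, 25.4 and 26.2 at 10 dpa, and 33.5 and 21.3 at 14 dpa. No regrowth library entered the 0 dpa range, and the change at 3 dpa was 14.8-fold between means (log2 change 3.71 ± 0.38, adjusted p = 5.14e-06). The lowest library at 7 dpa and the 2 lowest at 10 dpa are among the 4 high in fosb. dlx6a, which lies beside dlx5a in the genome, rose from 0.81, 1.55 and 1.47 to 7.18, 12.3 and 18.5 (log2 change 2.51 ± 0.39, adjusted p = 0.000145). At 10 dpa its call was lost in 5 of 23 alternatives.

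dlx2a was at 8.91, 7.97 and 10.7 at 0 dpa and at 84.6, 128 and 123 at 3 dpa, a 12.2-fold change of means (log2 change 3.45 ± 0.40, adjusted p = 1.62e-05). dlx4a rose from 12.1, 20.7 and 20.2 to 129, 164 and 165 (log2 change 3.07 ± 0.27, adjusted p = 1.24e-06). For both genes the groups at 0 and 3 dpa did not overlap. dlx4a fell by 0.21 ± 0.03 (SE) log2 units per day between 3 and 14 dpa, and dlx5a fell by 0.23 ± 0.04. dlx3b, known for its role in the epidermal and bone lineages, was at 122, 196 and 218 at 0 dpa and at 245, 361 and 363 at 3 dpa. Its 3 dpa libraries lay above all 0 dpa libraries, yet the call was weak (log2 change 0.87 ± 0.34, adjusted p = 0.0445) and was lost in 12 of 23 alternatives, for instance with replicate 1 of 0 dpa left out (0.62, adjusted p = 0.16). Without the 4 libraries high in fosb dlx3b was also called at 7 dpa. It stood at 122 to 187 in those 4 libraries and at 196 to 363 in the other 10. dlx2b rose by 0.63 log2 units, with an adjusted p of 0.00198, and lost that call under median-of-ratios scaling (0.37, adjusted p = 0.0773). At 14 dpa none of the 8 Dlx genes was called. Without the 4 libraries dlx1a, dlx2a and dlx5a were called higher at that time, beside 28.5% of all genes in that setting and 10.1% in all libraries.

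**Figure D4:**
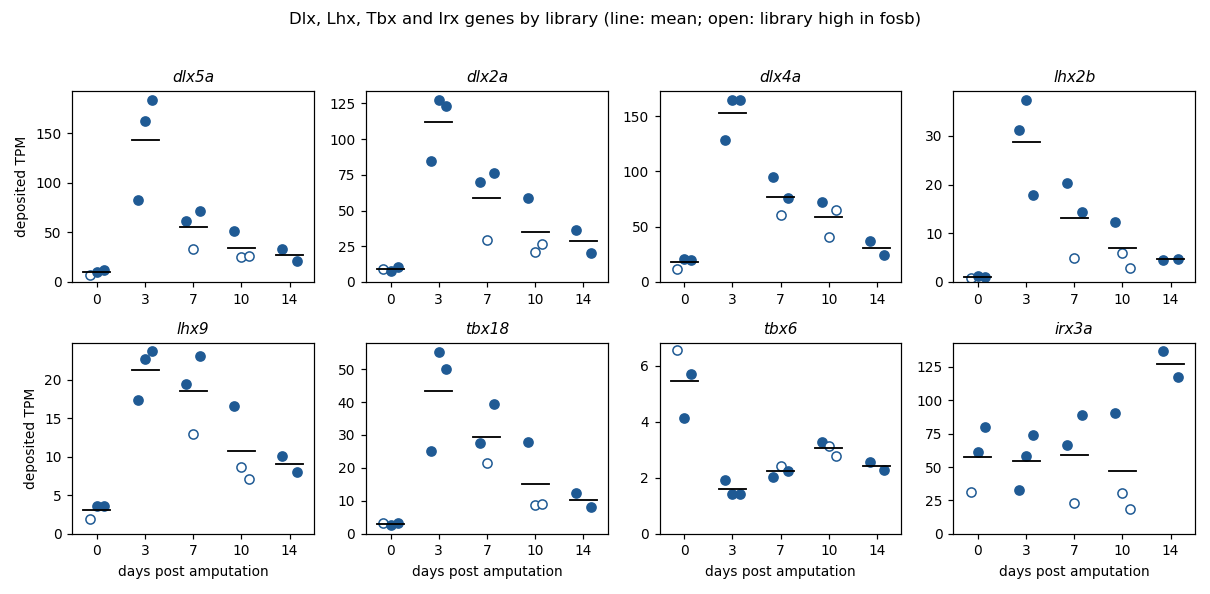
Deposited value (vertical axis, linear, from 0) of 8 Dlx, Lhx, Tbx and Irx genes in each of the 14 libraries, by days post amputation (horizontal axis), with a line at each mean. Open circles are the 4 libraries high in fosb. At 7 and 10 dpa the open circles of dlx5a and tbx18 lie below the filled ones; tbx6 stands lower during regrowth than at 0 dpa.

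Both Lhx members, LIM homeobox genes of limb mesenchyme in mouse and chick, rose at 3 dpa, beside 35% of all genes. lhx2b was at 0.81, 1.15 and 1.07 at 0 dpa and at 31.3, 37.3 and 17.9 at 3 dpa, a 28.5-fold change of means (log2 change 3.83 ± 0.48, adjusted p = 2.91e-05). By 14 dpa it was at 4.49 and 4.74, above every 0 dpa library but not past the test (adjusted p = 0.0906). Without the 4 libraries high in fosb it was called at 14 dpa. At 7 and 10 dpa the libraries of that set held 4.89, 5.97 and 2.91, and those outside it 20.4, 14.4 and 12.3. lhx9 rose from 1.90, 3.66 and 3.62 to 17.4, 22.7 and 23.7 (log2 change 2.47 ± 0.31, adjusted p = 2.73e-05) and was still called at 14 dpa, at 10.1 and 7.97 (adjusted p = 0.0301, lost in 8 of 23 alternatives).

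The Tbx genes moved in both directions: 3 of 9 rose at 3 dpa, tbx18, tbx2a and tbx15, and 2 fell, tbx6 and tbx21. These shares, 33.3% and 22.2%, are near those of all genes, 35% and 19.6%. tbx15 was at 0.81, 0.27 and 0.33 at 0 dpa, under 1 in every library. It reached the level for membership only through regrowth. tbx18, expressed in the mesenchyme of the mouse limb bud, was at 3.24, 2.70 and 3.15 at 0 dpa and at 25.2, 55.3 and 49.9 at 3 dpa. It was at 27.5, 21.4 and 39.4 at 7 dpa, at 28.01, 8.62 and 8.94 at 10 dpa, and at 12.5 and 8.20 at 14 dpa. All 11 regrowth libraries lay above those of 0 dpa, and the level fell by 0.20 ± 0.04 (SE) log2 units per day between 3 and 14 dpa (adjusted p = 0.00366). tbx6, an embryonic mesoderm gene, was at 6.55, 4.12 and 5.69 at 0 dpa and at 1.90, 1.42 and 1.44 at 3 dpa. It stayed at 2.04 to 3.26 in all later libraries, below the whole 0 dpa range, and its change at 3 dpa was -1.31 ± 0.17 (adjusted p = 3.58e-05). At 10 dpa the change of tbx6 was -0.66 (adjusted p = 0.0175), and without the 4 libraries high in fosb it was -0.46 and not called (adjusted p = 0.257). tbx21, known as T-bet in lymphocytes, was at 1.96, 1.28 and 0.80 at 0 dpa and at 0.32, 0.39 and 0.19 at 3 dpa. The change was -0.83 with an adjusted p of 0.0127, and leaving out replicate 1 of 0 dpa ended the call (-0.65, adjusted p = 0.0526). The positive slope of tbx21 between 3 and 14 dpa (adjusted p = 0.022 by limma) was lost in 4 of 23 alternatives, at most 0.0678. tbx21 had 3 to 33 reads in a library. tbx1 was at 43.7, 34.3 and 41.9 at 0 dpa and at 41.5, 82.5 and 92.0 at 3 dpa, groups that overlap (log2 change 0.76, adjusted p = 0.0799). The paired-appendage genes tbx4, tbx5a and tbx5b did not reach the level for membership in any library: their highest values were 0.067, 0.0663 and 0.0669, or about 1 read.

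Of the 4 Irx members, homeobox genes with roles in the proximal limb of the mouse, irx5a and irx6a rose at 3 dpa. Over all genes 35% were higher. irx5a was at 5.27, 8.17 and 14.5 at 0 dpa and at 27.3, 47.6 and 54.0 at 3 dpa (log2 change 2.14 ± 0.58, adjusted p = 0.00754). At 7 dpa the change of irx5a, 1.44, did not pass (adjusted p = 0.0769), and without the 4 libraries high in fosb it was 1.81 and passed (adjusted p = 0.00393). irx6a, which met the level for membership through 3 dpa libraries, was at 0 in all 3 libraries of 0 dpa and had 71 reads at 3 dpa, at least 22.2-fold higher than the level that 3 reads over the 0 dpa group would give. irx3a was at 31.0, 61.3 and 79.9 at 0 dpa and at 32.6, 58.0 and 74.1 at 3 dpa, and so overlapped fully (log2 change -0.04, adjusted p = 0.96). Its libraries at 14 dpa, 137 and 118, were the highest of all, and it was at 18.8 to 31.0 in the 4 libraries high in fosb and at 32.6 to 137 in the other 10.

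Neighbouring members were set side by side. In the order of genes in a RefSeq annotation (assembly GRCz12tu, used for neighbourhood only) the members formed 27 adjacent pairs, of which 20 had both genes called at 3 dpa. Since 70.5% of the members were called at that time and the pairs share genes, this count is a description and shows nothing particular to neighbours. The 20 include the pairs dlx1a with dlx2a, dlx3b with dlx4b, and dlx5a with dlx6a. In the posterior hoxd stretch the changes of hoxd9a to hoxd13a were all between 1.11 and 1.54. irx5a and irx6a both rose, while the next gene, irx3a, had a change of -0.04.

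The balance between duplicate copies was compared in each library as the log2 ratio of the a copy to the b copy, for the 10 pairs with both copies among the members. An exact two-sided permutation test of the mean ratio at 0 dpa (3 libraries) against regrowth (11 libraries) has 364 splits, so the smallest p it allows is 0.00275. The ratio differed in 4 pairs after Benjamini-Hochberg adjustment over the 10. hoxa13a against hoxa13b was -2.48 to -2.27 at 0 dpa and -1.41 to -0.27 during regrowth, a shift of 1.53 (adjusted p = 0.00916). dlx2a against dlx2b was -1.75 to -1.35 and -0.93 to 1.48, a shift of 1.94 (adjusted p = 0.00916). hoxa11a against hoxa11b moved the other way, from -1.04 to -0.72 at 0 dpa to -2.33 to -1.27 during regrowth (shift -1.01, adjusted p = 0.00916). In these 3 pairs no regrowth library overlapped the 0 dpa libraries on the ratio of value + 1. hoxa11a had only 5 to 27 reads in a library, and the added 1 alters the lower hoxa11a more than hoxa11b. For the hoxa11 pair the separation depends on that 1. In reads of hoxa11a beside hoxa11b the 0 dpa libraries held 13 and 31, 5 and 26, and 7 and 29. Replicate 3 of 10 dpa held 23 and 76, replicate 2 of 7 dpa 27 and 136, and replicate 2 of 14 dpa 11 and 57. These plain ratios lie inside the 0 dpa range, the last 2 of them near its lower end. The shift of hoxa9a against hoxa9b, 0.64 (adjusted p = 0.0275), was lost without any one library of 0 dpa (adjusted p of 0.0641, 0.15 and 0.0641 when each in turn was left out). The pairs dlx4, hoxc13, hoxc12, tbx2 and meis1 had shifts of 0.66, -1.04, 0.40, 0.32 and 0.45, with adjusted p of 0.0549, 0.0641, 0.192, 0.302 and 0.586. Reads of near-identical copies can be divided between them by the authors' quantification, so the ratios carry that uncertainty. The values have no correction for gene length, so only the shift of a ratio is read, not which copy is the more abundant.

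**Figure D5:**
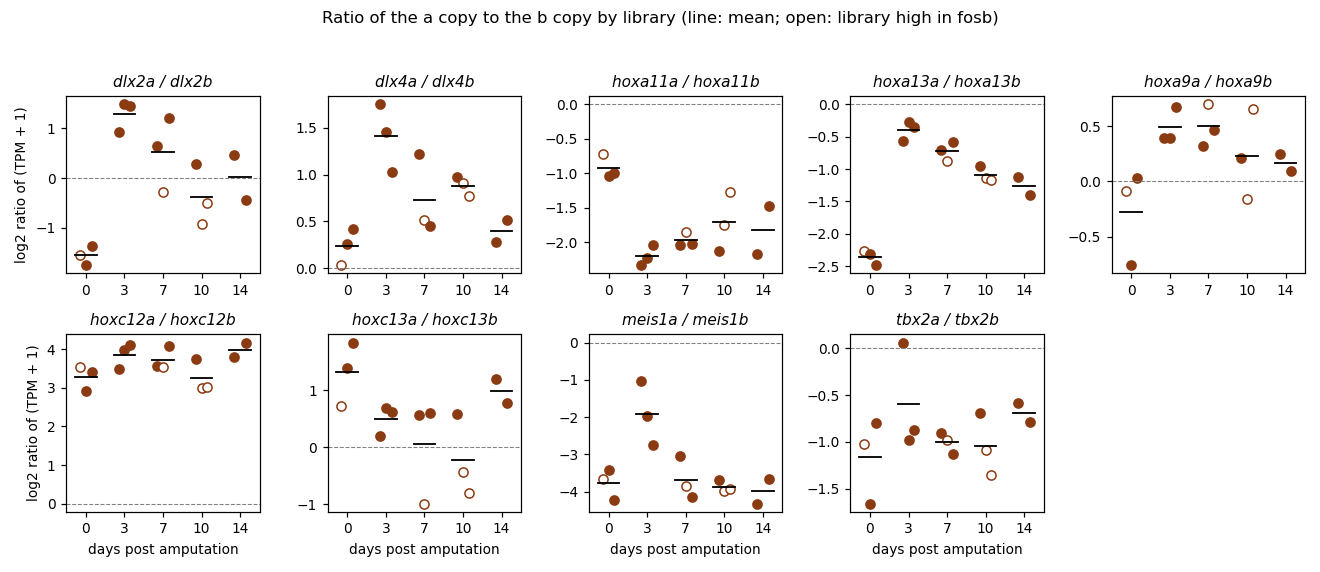
Log2 ratio (value + 1) of the a copy to the b copy (vertical axis) in each library, for the duplicate pairs named here, by days post amputation (horizontal axis), with a line at each mean and open circles for the 4 libraries high in fosb. For hoxa13, dlx2 and hoxa11 the 3 libraries at 0 dpa lie outside the range of the 11 regrowth libraries. For hoxa11, which has few reads, this depends on the added 1.

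The members moved in a tissue whose cell type markers also changed. At 3 dpa 8 of 9 fibroblast markers were higher, and their summed value was 3990 to 4630 at 0 dpa and 23100 to 27100 at 3 dpa. The osteoblast sum went from 198 to 284 up to 12800 to 13000, with 6 of 8 tested markers higher. The superficial epidermis sum was 18300 to 22900 at 0 dpa and 7240 to 9980 at 3 dpa, with 8 of 8 lower, and the macrophage sum was 3770 to 4860 and 1100 to 1260, with 3 of 6 lower. Of the endothelial markers 6 of 6 tested were higher at 3 dpa, and their sum went from 72.7 to 79.2 up to 183 to 206. Of the glia and nerve markers 4 of 5 were lower and 1 higher, and of the pigment markers 5 of 7 were lower at 3 dpa and 6 of 7 higher at 7 and at 10 dpa. Of the basal epidermis markers 1 of 7 was higher and 2 were lower, and their sum went from 58000 to 94400 at 0 dpa down to 31600 to 38300 at 3 dpa. Of 8 muscle markers listed 6 were in the table, with a sum of 0.617 to 1.47 at 0 dpa and 8.16 to 9.27 at 3 dpa. Only 2 of them reached the level for testing, and both were higher. At 0 dpa sums this low that level was easier to reach through regrowth, so these 2 calls carry little weight. At 14 dpa the fibroblast sum was 8550 to 8730 and the osteoblast sum 2330 to 2680. None of the markers in these lists was at 0 in all libraries. The part of these shifts in the members' changes was not tested.

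Patterning genes outside the named families give a comparison: of 61 listed, 57 were in the table and 37 were tested. At 3 dpa 28 were higher, 3 were lower (mkxb, six4a and six4b) and 6 were not called, with a median log2 change of 1.92, beside 35% of all genes higher and 19.6% lower. Among the largest changes were those of prrx1b (4.30 ± 0.20, adjusted p = 7.22e-09), sp8b (3.33 ± 0.42) and tshz3b (3.07 ± 0.22). prrx1b encodes a limb mesenchyme homeodomain protein, and sp8b a zinc finger factor of the limb rim. At 14 dpa 18 of the 37 were higher and 1 was lower, beside 10.1% and 1.08% of all genes.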

How the data were processed

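The deposited table, which the authors named TPM, held values of the CPM kind for each gene in 14 libraries. Per the submitters' processing notes, the tools were Salmon 1.4.0, cutadapt 3.5 and Trim Galore 0.6.7, on build danRer11, and the step from transcripts to genes was not stated. Within a library, 93.7% to 98.4% of the values of up to 20 reads were whole multiples of 1 read within 0.1, whatever the gene, so the values showed no division by gene length. The tests had been planned for length-corrected values and were kept: limma 3.58.1 with a variance trend (R 4.3.3) on log2(value + 1), 1 mean per time, genes at 1 or more in at least 2 libraries, no further scaling, and a slope over the 11 regrowth libraries with day 3.5 for the first time. Threshold: adjusted p under 0.05 over all genes. Recovered reads were tested with edgeR 4.0.16 as an alternative.

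Members and lists were chosen with earlier results of these data known. Values per library are given, in each family, for up to 4 called members with the largest change at 3 dpa and a mean of at least 5, up to 2 by slope, and the most abundant one. Other members named with values (such as hoxc11a, hoxd13a, hoxd9a, hoxb13a, meis1b, tbx21, irx6a and dlx2b) were chosen after their values were seen. The scripts were tested on simulated data. Every value column had a sample. A few genes enter the fits and counts but are not reported here by name.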

Additional observations from a re-analysis of the deposited data

How the results depend on the processing

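Of 7086 values of single members or pairs under the alternatives, 6718 kept their side of the threshold, 256 lost the call and 112 gained it. No called value changed sign, but 160 values that were uncalled in both settings did, in 58 of the results. Of the 43 members called at 3 dpa, 34 were called under every alternative run. Leaving out 1 library at a time, the number of members called ranged from 36 to 43 at 3 dpa, 31 to 39 at 7 dpa, 19 to 30 at 10 dpa, 1 to 13 at 14 dpa, 31 to 40 at any time and 22 to 31 for the slope, and that of shifted duplicate pairs from 3 to 6. With a mean of at least 5, 24 members were called at 3 dpa, 21 at 7 dpa and 22 at any time, since fewer members were tested. At 14 dpa the count of 10 became 16 with a pseudocount of 0.1, 5 with a pseudocount of 5 and 4 with median-of-ratios scaling; the cause was not tested. Chosen after seeing the data, the count test of edgeR on recovered reads gave 38, 37, 29 and 5 at 3, 7, 10 and 14 dpa. Leaving out the 4 libraries high in fosb gave 21 at 14 dpa, beside 31.1% of all genes. In the main setting 62.3% of the members were called at any time, beside 47.6% of all genes. Shares of all genes were not counted with 1 library left out, the mean filter, the pseudocounts or edgeR. The counts under those settings describe the members alone.

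Replicate numbers did not pair the libraries: over 26 same-numbered pairs the correlation of deviations ranged from -0.77 to 0.57, 10 above 0.1. With a replicate block the counts were 40, 36, 29 and 8 at 3, 7, 10 and 14 dpa, 38 at any time and 27 for the slope. The share of all genes called with that block was not counted.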

Other observations

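No group had enough libraries to test for an outlying one, since each time had 2 or 3. In the 4 libraries high in fosb the members hoxc10a, hoxc3a and pbx2 were all above, and dlx3b, irx3a and tbx3a all below, every one of the other 10 libraries. These genes were picked for that pattern, so it has no test. The summed value of 10 immediate early genes was 4030 to 6400 in the 4 libraries and 1620 to 2840 in the other 10. Without the 4 libraries tbx18, hoxc12a, hoxc13a and meis1a gained a call at 14 dpa, and hoxc13b, irx3a and irx5a gained a called slope. The share of all genes called also went from 11.2% to 31.1% at 14 dpa and from 30.8% to 36.6% for the slope. Other members also gained or lost calls.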
